A study of Daphnia magna with 20 samples.

Results

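Transcript levels of whole water fleas (Daphnia magna) kept for 21 days with particles of an ethylene acrylic acid copolymer were compared between 2 concentrations, 2.3e12 particles per litre (nano_high) and 2.3e11 particles per litre (nano_low). The comparison took the 5 nano_high and the 5 nano_low libraries, chosen by their labels, 10 of the 20 libraries of the series. The vehicle control (5 libraries, no particles) is given beside them where it places a value. The remaining 5 libraries, from fumed silica at 2.3e12, entered the fit and are not described. The labels give no strain, and each level had 15 vessels that started with 1 daphnid each, at a target of 20 °C. RNA came from daphnids pooled before extraction, 125 ng per library, and a poly-A selected stranded kit was used. How many animals a pool held, and whether the 5 libraries of a level came from separate cultures, the labels do not give, and p-values therefore cover only the spread among these samples, which may be technical. The labelled stage is a neonate under a day old, whereas the exposure ran to day 21, and the labels leave the age at RNA extraction unsettled.

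Ethylene acrylic acid copolymer is a plastic of ethylene units with acid side groups, and is sold in water-borne dispersions. Daphnia filter particles from the water with their limbs and pass them to the gut, where a chitin and mucin lining, the peritrophic matrix, separates food from the gut wall and where proteases such as trypsin, chymotrypsin and cathepsin L digest it. An adult moults, sheds its cuticle and lays a new brood in each cycle, so cuticle, matrix and yolk transcripts move with the moult and brood cycle. Mitochondria supply ATP through the respiratory complexes, and peroxiredoxins and glutathione peroxidases remove the peroxides that respiration and stress leave.

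The values are estimated counts scaled to CPM, counts relative to a common library total that TMM adjusts for composition. The nano_high libraries were deeper, 4 of 5 of them than every nano_low library, with 39087882 to 95906857 counts against 9689064 to 40227246 in nano_low and 11918440 to 26562258 in control. With every library thinned to a total of 7912464 counts, 7364 to 7384 names were detected in the nano_high libraries and 7327 to 7398 in the nano_low libraries. A principal component analysis of log2 CPM put 38.9% of the variance on its first axis, and 24.4% of that variance lay between the 4 groups. On this axis nano_high 4 and 5 stood at -53.2 and -33.6 and nano_low 1 at -55.1, while the other 7 libraries lay between -8.79 and 33.6. The same 3 libraries had the lowest summed collagen and matrix transcripts, at 6377 and 6892 CPM in nano_high 4 and 5 and 4746 CPM in nano_low 1, against 9467 to 16730 CPM in the other 7. They are called collagen-low below, and values without them (2 collagen-low control libraries left out as well) are given beside each list whose median turns without them, and beside others where it shifts most. Transcripts of gut, muscle, eye, germ line, blood and cuticle were all present in both groups, as the label whole organism asks. Of plastid names, which would mark the algal food, 0 were found in the table.

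No transcript passed the test for a difference between the higher and the lower copolymer concentration after correction for multiple testing. Of 7564 names tested, 0 passed an adjusted p of 0.05 by the quasi-likelihood test of edgeR after Benjamini-Hochberg adjustment (percent called 0), and the lowest adjusted p was 0.521. At an unadjusted p under 0.05 there were 511 names (6.76%), 267 of them higher (3.53%) and 244 lower (3.23%) in nano_high. DESeq2's Wald test called 4 names, cyclin-t2 higher and 3 others lower in nano_high, all described below. In the same fit, nano_high against the control called 761 names (10.1%) and nano_low against the control 47 (0.621%). These 2 comparisons share the control libraries.

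The intervals show which differences the data leave room for. For 6115 of the 7564 names (80.8%) the 95% interval of the log2 difference lay within 2-fold in either direction, and for 4350 (57.5%) it lay within 1.5-fold. The median standard error was 0.17 on the log2 scale, and the median within-group SD was 0.29 in nano_high and 0.28 in nano_low. Fitted differences above 2-fold were found for 197 names (2.6%), 93 higher and 104 lower in nano_high, and 151 of these had a mean below 5 CPM. Of the 46 at 5 CPM or more, only spatzle (higher) and fkbp14 (lower) had libraries that did not overlap between the groups. Libraries did not overlap for 89 of all names (1.18%), 44 higher (0.582%) and 45 lower (0.595%) in nano_high.

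**Figure D1:**
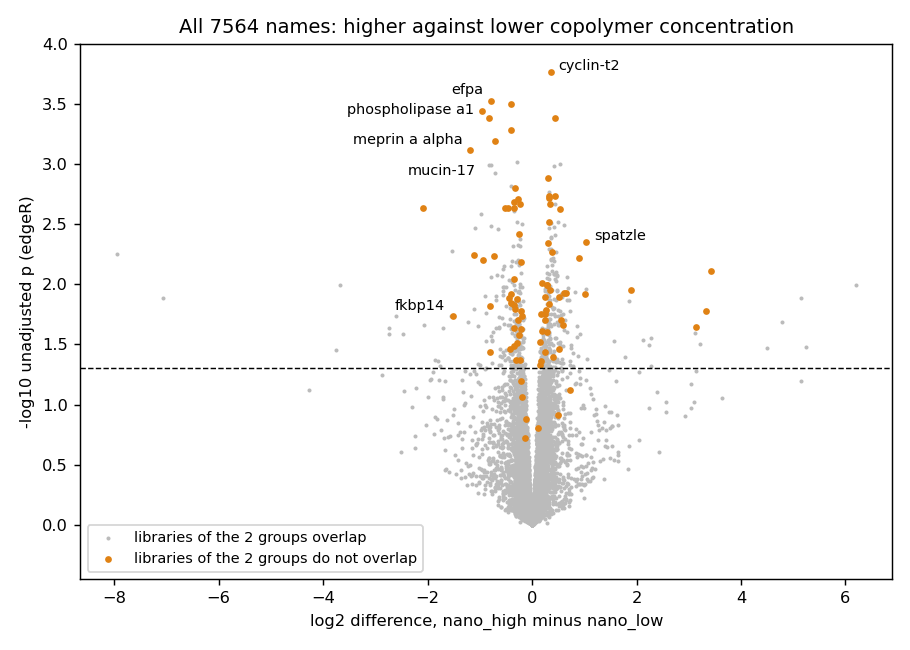
Log2 difference (nano_high minus nano_low, x axis) against -log10 of the unadjusted edgeR p (y axis) for the 7564 names. Orange points are the 89 names whose 5 nano_high and 5 nano_low libraries do not overlap, grey points all others, and the dashed line marks an unadjusted p of 0.05. No name passed after adjustment.

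The names described next are the 24 with an informative description and the smallest unadjusted p. None passed the edgeR test (adjusted p 0.521 to 0.557). They are given as measured values, in the order of what the proteins do.

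Of these names, 4 that act on RNA or transcription had higher values in nano_high, while ribonuclease uk114 was lower. Cyclin-t2, the partner of the kinase that releases paused RNA polymerase II in animals, had 65.3, 70.5, 81.6, 72.3 and 84.1 CPM in the nano_high libraries, against 58.3, 57.9, 57.7, 57.4 and 61.1 CPM in the nano_low libraries. All 5 nano_high libraries were above all 5 nano_low libraries, and the control averaged 48.3 ± 3.80 CPM (SD, n = 5). The log2 difference was 0.35 (SE 0.08, 95% interval 0.20 to 0.51), with an edgeR adjusted p of 0.521 and a DESeq2 adjusted p of 0.0362. La-related protein, of a family of RNA-binding proteins, had 26.8, 30.5, 34.5, 37.3 and 38.0 CPM in nano_high and 24.6, 25.4, 21.4, 25.4 and 25.7 CPM in nano_low, again without overlap (log2 difference 0.45, SE 0.10).

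ATP-dependent RNA helicase an3, named after a DEAD-box helicase of the frog Xenopus, had 59.9, 71.9, 74.3, 64.2 and 85.1 CPM in nano_high against 56.8, 57.7, 56.0, 55.3 and 56.4 CPM in nano_low. The nano_low libraries lay close together and below every nano_high library (log2 difference 0.33, SE 0.09). Plasminogen activator inhibitor 1 rna-binding protein (tag arp2_g6385), which binds mRNA and ribosomes in mammals, had 453, 536, 389, 490 and 478 CPM in nano_high and 321, 280, 304.9, 276 and 437 CPM in nano_low. Here nano_low 5 reached into the nano_high range, so the groups overlapped (log2 difference 0.54, SE 0.14).

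The next names are membrane, secreted and lipid-related proteins, grouped by eye and not as a tested set. Integral membrane efflux protein efpa carries the name of a mycobacterial drug efflux transporter. Its levels were 40.6, 38.0, 48.5, 25.6 and 21.8 CPM in nano_high, against 58.2, 60.4, 69.0, 61.6 and 51.8 CPM in nano_low. The groups did not overlap, and the control stood at 57.2 ± 11.9 CPM (SD, n = 5), near nano_low. The log2 difference was -0.79 (SE 0.18, 95% interval -1.16 to -0.41), with adjusted p of 0.521 by edgeR and 0.0494 by DESeq2. Nano_high 4 and 5, both collagen-low, were the lowest of the 10 libraries, while nano_low 1, also collagen-low, lay among the other nano_low libraries at 58.2 CPM.

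Phospholipase a1 member a, a secreted enzyme that in mammals cleaves phosphatidylserine, had 2.90, 1.55, 3.32, 2.69 and 1.77 CPM in nano_high and 4.88, 4.77, 4.93, 4.82 and 4.33 CPM in nano_low. All nano_high libraries were below all nano_low libraries, and the control averaged 3.61 ± 0.681 CPM, between the groups. Its log2 difference was -0.95 (SE 0.22), with an adjusted p of 0.521 by edgeR and 0.0494 by DESeq2. Once all libraries were thinned to equal depth the value was -1.28, with an edgeR adjusted p of 0.0157, and it was the single name called there. The thinning was a single random draw that discards counts of an already low transcript, and other draws were not tried. Tumor necrosis factor alpha-induced protein 8 protein 3, a carrier of phosphoinositide lipids in mammals, had 19.4, 16.8, 18.9, 17.5 and 19.1 CPM in nano_high against 24.1, 27.3, 25.4, 24.5 and 20.6 CPM in nano_low. The 2 sets did not overlap, though nano_low 5 came close (log2 difference -0.41, SE 0.09, adjusted p of 0.521 by edgeR and 0.0494 by DESeq2).

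Mucin-17 is in humans a membrane mucin of the intestinal brush border. It had 3516, 2568, 3324, 2803 and 3222 CPM in nano_high, against 7463, 7869, 3469, 5044 and 3377 CPM in nano_low. The nano_low libraries spread from 3377 to 7869 CPM and 2 of them lay inside the nano_high range, and the control averaged 5154 ± 632 CPM (log2 difference -0.82, SE 0.21, 95% interval -1.26 to -0.38). Meprin a subunit alpha, an astacin metalloproteinase found in mammals on the brush borders of kidney and gut, was a low transcript with 1.08, 1.05, 1.41, 0.673 and 1.41 CPM in nano_high and 2.20, 3.94, 2.36, 2.38 and 1.87 CPM in nano_low. No library overlapped (log2 difference -1.19, SE 0.30). Its partner meprin a subunit beta, picked after its values were seen, had 16.8, 12.2, 18.5, 14.7 and 15.6 CPM in nano_high against 27.3, 32.3, 26.6, 20.1 and 16.6 CPM in nano_low, with nano_low 5 inside the nano_high range (log2 difference -0.66, SE 0.20, edgeR adjusted p 0.583). Lectin-33a, a C-type lectin named from Drosophila, stood at 79.6, 58.6, 67.9, 75.7 and 67.0 CPM in nano_high and 145, 125, 122, 77.2 and 104 CPM in nano_low. A single nano_low library, replicate 4, lay within the nano_high range (log2 difference -0.71, SE 0.19).

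Enzymes of one-carbon, carbohydrate and steroid-type metabolism had values in both directions. Glycine n-methyltransferase, which uses S-adenosylmethionine to turn glycine into sarcosine, had 97.5, 95.3, 90.6, 117 and 98.1 CPM in nano_high and 131, 132, 130, 138.8 and 133 CPM in nano_low. The groups did not overlap, the control averaged 145 ± 16.2 CPM, and the log2 difference was -0.41 (SE 0.10, 95% interval -0.62 to -0.21). Glycogen synthase, which lengthens glycogen chains, had 13.8, 11.1, 12.0, 9.82 and 8.95 CPM in nano_high against 17.4, 20.7, 13.6, 17.8 and 26.4 CPM in nano_low. Only nano_low 3, at 13.6 CPM, fell within the nano_high range (log2 difference -0.79, SE 0.20).

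Pyruvate carboxylase, the mitochondrial enzyme that makes oxaloacetate from pyruvate, had 215, 218, 227, 232 and 243 CPM in nano_high and 141, 188, 166, 197 and 149 CPM in nano_low. Every nano_high library was above every nano_low library (log2 difference 0.43, SE 0.12), and the control stood at 164 ± 26.7 CPM. The mitochondrial 25-hydroxyvitamin d-1 alpha hydroxylase, a cytochrome P450 that in mammals activates vitamin D, had 47.8, 43.7, 44.5, 43.4 and 31.6 CPM in nano_high, against 83.6, 80.8, 78.3, 62.3 and 67.1 CPM in nano_low. This was a clear gap between the groups (log2 difference -0.82, SE 0.19, 95% interval -1.22 to -0.42), while the control libraries ran from 40.3 to 89.0 CPM and covered most of both. Hig1 domain family member (tag arp2_g6209), of a family that in yeast and mammals binds respiratory complexes, had 7.27, 6.02, 5.57, 5.65 and 5.25 CPM in nano_high and 7.41, 12.7, 10.3, 10.2 and 8.31 CPM in nano_low. The 2 ranges nearly touched, and the control was above both at 14.9 ± 3.18 CPM (log2 difference -0.72, SE 0.17).

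**Figure D2:**
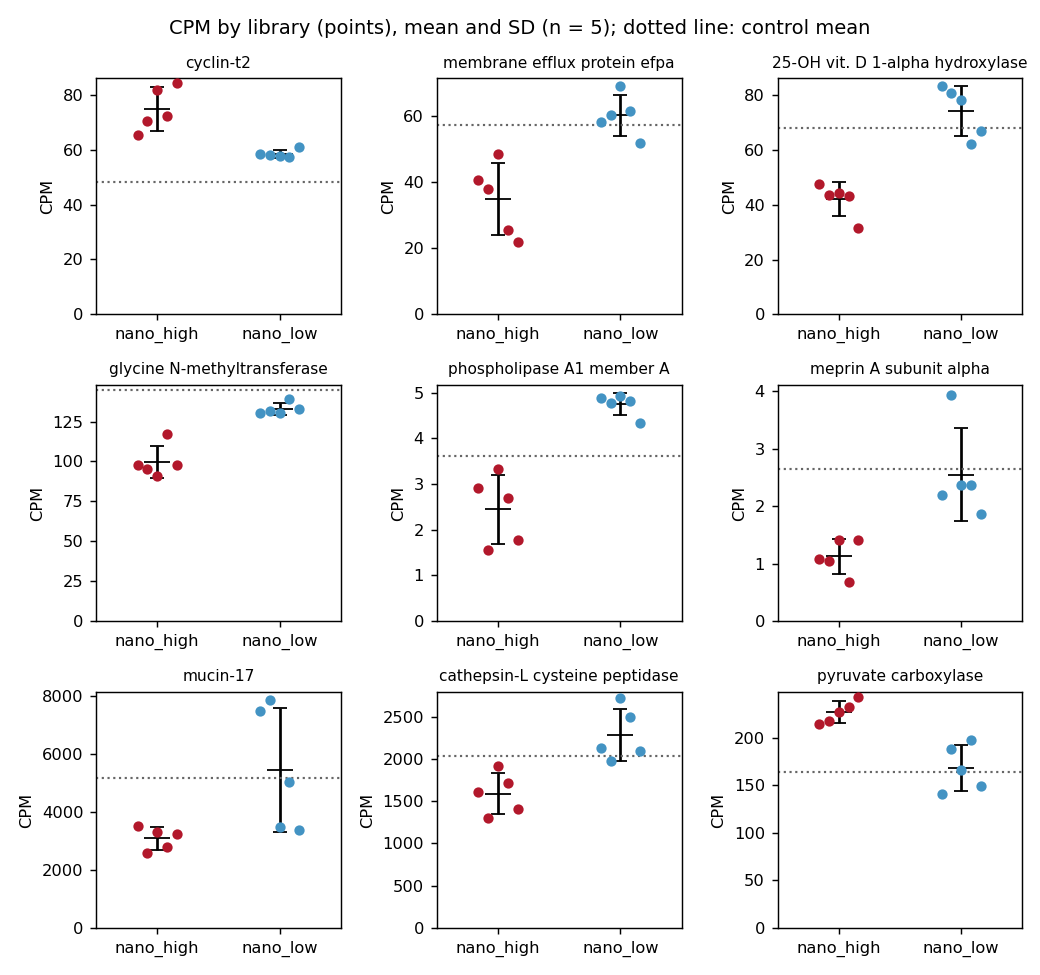
CPM in each library (points) with mean and SD (bars, n = 5 per group) for 9 names, nano_high left and nano_low right; the dotted line is the control mean and every y axis starts at 0. In cyclin-t2 and pyruvate carboxylase all nano_high points lie above all nano_low points, and in mucin-17 the wide nano_low spread reaches down to the nano_high values.

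The other 9 of the 24 names had log2 differences between -0.41 and 0.42. Son of sevenless, the exchange factor that activates Ras, had 54.7, 56.8, 55.9, 54.1 and 65.8 CPM in nano_high and 39.8, 45.4, 46.6, 49.1 and 51.4 CPM in nano_low, without overlap (log2 difference 0.31, SE 0.08). Phosphatase and actin regulator, which binds actin and protein phosphatase 1, had a log2 difference of 0.42 (83.1 ± 12.4 CPM in nano_high and 62.2 ± 7.44 CPM in nano_low, SD, n = 5 each). Sterile alpha and tir motif-containing protein (tag arp2_g744), whose fly and mouse relatives cleave NAD in injured axons, differed by 0.32, and mitochondrial peptidyl-prolyl cis-trans isomerase, a protein-folding enzyme, also by 0.32. On the lower side, ribonuclease uk114 had a log2 difference of -0.41, mitochondrial gtpase of -0.35, beta-lactamase protein 2 of -0.34, and dynactin subunit, a part of the dynein motor's activator, of -0.28. Transforming growth factor-beta receptor-associated protein also stood at -0.28. The libraries of the 2 groups overlapped for phosphatase and actin regulator, sterile alpha and tir motif-containing protein, ribonuclease uk114 and dynactin subunit. They did not overlap for the other 5 of these 9 names. Of all 24 names 16 did not overlap, against 1.18% over all names. The 24 were chosen by the p of this same comparison, so the lack of overlap adds no separate support.

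Digestive enzymes had values in both directions, none past the test. Of 43 digestive proteases 13 had positive and 30 negative log2 differences, with a median of -0.07, against 3844 positive and 3720 negative and a median of 0.0053 over all 7564 names. At an unadjusted p under 0.05 there were 3 higher and 4 lower (3.53% and 3.23% over all names). The higher ones include trypsin alpha precursor, near the floor at 0.138 CPM in nano_high and 0.021 CPM in nano_low. Cathepsin-l cysteine peptidase, a lysosomal and digestive protease, had 1614, 1307, 1916, 1714 and 1405 CPM in nano_high, against 2131, 1980, 2722, 2497 and 2092 CPM in nano_low. All 5 nano_high libraries were below all 5 nano_low libraries, and the control averaged 2031 ± 254 CPM (log2 difference -0.52, SE 0.15, 95% interval -0.83 to -0.21, edgeR adjusted p 0.557). The name cathepsin l was among the lower ones too, with 831 CPM in nano_high and 1093 CPM in nano_low (log2 difference -0.39, SE 0.19).

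Both signs occurred among the gut serine proteases, with 2 of 4 chymotrypsin names and 2 of 7 trypsin names positive. The 2 positive trypsin names were trypsin serine protease and the near-floor trypsin alpha precursor. Chymotrypsin proteinase 6e precursor had 41.7, 49.5, 38.2, 71.7 and 48.2 CPM in nano_high and 109, 72.4, 92.3, 47.4 and 76.0 CPM in nano_low, with nano_low 4 inside the nano_high range (log2 difference -0.67, SE 0.23). Trypsin serine protease had 490, 404, 700, 570 and 844 CPM in nano_high and 183, 437, 192, 460 and 208 CPM in nano_low. Nano_low 1, 3 and 5 were below every nano_high library, and nano_low 2 and 4 lay inside the nano_high range (log2 difference 1.02, SE 0.36). The edgeR adjusted p was 0.644 for both. Chymotrypsin bi precursor, in contrast, had a log2 difference of 0.51 (1637 CPM in nano_high and 1146 CPM in nano_low), and trypsin-like serine protease (tag arp2_g2499) one of -0.81 (1.37 CPM in nano_high and 2.40 CPM in nano_low).

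Of 33 digestive carbohydrases and lipases, 14 were positive and 19 negative (median -0.03). At an unadjusted p under 0.05 there were 0 higher and 2 lower (3.53% and 3.23% over all names), both lipases. Hepatic triacylglycerol lipase had 53.6, 46.8, 62.2, 89.2 and 82.7 CPM in nano_high and 116, 168, 119, 94.9 and 78.5 CPM in nano_low. Control libraries, from 161 to 354 CPM, were above all nano_high libraries (log2 difference between nano_high and nano_low -0.79, SE 0.27, edgeR adjusted p 0.644). Gastric triacylglycerol lipase precursor averaged 255 ± 33.9 CPM in nano_high and 319 ± 20.9 CPM in nano_low, a log2 difference of -0.32 (SE 0.15). In the peritrophic matrix and mucin list of 10, 6 were positive and 4 negative (median 0.16). Mucin 55b had 644, 685, 741, 1295 and 996 CPM in nano_high and 630, 596, 745, 601 and 600 CPM in nano_low, the opposite sign to mucin-17 (log2 difference 0.46, SE 0.19, edgeR adjusted p 0.679). Its 2 highest libraries were the collagen-low nano_high 4 and 5, while nano_low 1, also collagen-low, lay among the other nano_low libraries at 630 CPM. Without the collagen-low libraries the list median was -0.17, with 3 of 10 positive.

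Transcripts of the respiratory chain had mostly small negative differences between nano_high and nano_low, none past the test. Of 68 oxidative phosphorylation names 62 had a negative and 6 a positive log2 difference, and the median was -0.23, against 3720 of 7564 negative and a median of 0.0053 over all names. At an unadjusted p under 0.05 there were 2 higher and 7 lower (3.53% and 3.23% over all names), and 0 passed the adjusted threshold (lowest edgeR adjusted p 0.644). The largest difference of the list was positive, 4.78 (SE 1.89) for mitochondrial atp synthase b chain. It averaged 73.6 CPM in nano_high and 2.65 CPM in nano_low, with overlapping libraries. By complex, all 25 NADH dehydrogenase (complex I) names were negative, with a median of -0.29. All 6 succinate dehydrogenase (complex II) names were negative too, with a median of -0.17. Both complex III names were negative, with a median of -2.12. One of them, ubiquinol-cytochrome c reductase iron-sulfur subunit, was near the floor at 0.0105 CPM in nano_high and 0.149 CPM in nano_low. Of 10 names with cytochrome c oxidase (complex IV) 9 were negative, with a median of -0.19. These 10 include a translational activator of the enzyme, which is not a subunit. For ATP synthase (complex V), 20 of 25 were negative, with a median of -0.17.

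Summed over the list, oxidative phosphorylation transcripts had 20590, 15800, 19710, 14550 and 14150 CPM in the nano_high libraries and 14900, 23580, 16370, 22840 and 18640 CPM in the nano_low libraries. The groups overlapped widely, and the lowest sums were those of nano_high 4 and 5 and nano_low 1, the collagen-low libraries. Without them the list median was -0.13 with 56 of 68 negative, and for complex I it was -0.18 with 24 of 25 negative. With equal depth the medians were -0.23 and -0.30. The part of the collagen axis in this result was not tested. Members of a list share libraries, so their number does not add independent support.

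Nadh dehydrogenase [ubiquinone] 1 subunit c2, a complex I subunit, had 9.86, 6.86, 7.53, 4.63 and 5.21 CPM in nano_high and 10.1, 11.4, 9.45, 9.30 and 9.91 CPM in nano_low. Only nano_high 1 reached the nano_low range, and the control was higher than both at 15.5 ± 3.03 CPM (log2 difference -0.56, SE 0.20, edgeR adjusted p 0.644). Cytochrome c oxidase subunit, of the enzyme that passes electrons to oxygen, had 2695, 2276, 2615, 2930 and 2487 CPM in nano_high and 3408, 3748, 2965, 4165 and 2755 CPM in nano_low, with nano_low 5 inside the nano_high range (log2 difference -0.39, SE 0.13). The exception of complex IV was cytochrome c oxidase subunit iv (tag arp2_g2429, picked after its values were seen). It had 2.55, 2.42, 2.59, 3.35 and 6.04 CPM in nano_high against 1.34, 1.91, 2.16, 1.33 and 1.68 CPM in nano_low, with all nano_high libraries above all nano_low libraries (log2 difference 1.01, SE 0.36).

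Proteins of the mitochondrial ribosome, which makes the subunits encoded in mitochondrial DNA, were added as a list after their values were seen. Of 54 names 52 were negative and 2 positive, with a median of -0.17. At an unadjusted p under 0.05, 3 were lower and 0 higher, against 3.23% lower and 3.53% higher over all names. Their summed level was 2217, 1837, 2202, 1360 and 1438 CPM in nano_high and 1589, 2233, 1961, 2321 and 1974 CPM in nano_low. Again the lowest values were those of the 3 collagen-low libraries, and without these the median was -0.04 with 33 of 54 negative. Of the 94 cytosolic ribosomal proteins 59 were positive and 35 negative, with a median of 0.03. Among them 40s ribosomal protein s19 was the only one at an unadjusted p under 0.05, with 723 ± 78.9 CPM in nano_high and 582 ± 81.5 CPM in nano_low (log2 difference 0.31, SE 0.12, edgeR adjusted p 0.662).

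Antioxidant transcripts were also mostly on the negative side, by small amounts. Of 26 names 23 were negative and 3 positive (median -0.20), with 0 higher and 5 lower at an unadjusted p under 0.05 and 0 past the adjusted threshold (lowest edgeR adjusted p 0.644). Over all names 3.53% were higher and 3.23% lower at that unadjusted p, and 3720 of 7564 differences were negative. The negative names included 14 of 15 thioredoxins, peroxiredoxins and glutaredoxins, all 4 glutathione peroxidases and 4 of 6 superoxide dismutases. A name that combines several thioredoxin peroxidases (gh25379p, secretable thioredoxin peroxidase, thioredoxin peroxidase 2, thioredoxin peroxidase), enzymes that reduce hydrogen peroxide with thioredoxin, had 88.2, 85.9, 79.8, 78.8 and 70.7 CPM in nano_high, against 106, 91.0, 96.3, 91.3 and 84.3 CPM in nano_low. The groups overlapped through nano_low 5, and the control was above both at 110 ± 4.38 CPM (log2 difference -0.22, SE 0.07). Peroxiredoxin-5, its mitochondrial relative, averaged 98.8 ± 9.53 CPM in nano_high and 119 ± 15.5 CPM in nano_low (log2 difference -0.27, SE 0.10). Phospholipid hydroperoxide glutathione peroxidase (tag arp2_g611), which reduces lipid peroxides in membranes, averaged 18.9 ± 2.04 CPM in nano_high and 24.7 ± 4.54 CPM in nano_low (log2 difference -0.38, SE 0.14). Without the collagen-low libraries the list median was -0.10 with 24 of 26 negative, and with equal depth it was -0.24 with 23 of 26 negative.

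**Figure D3:**
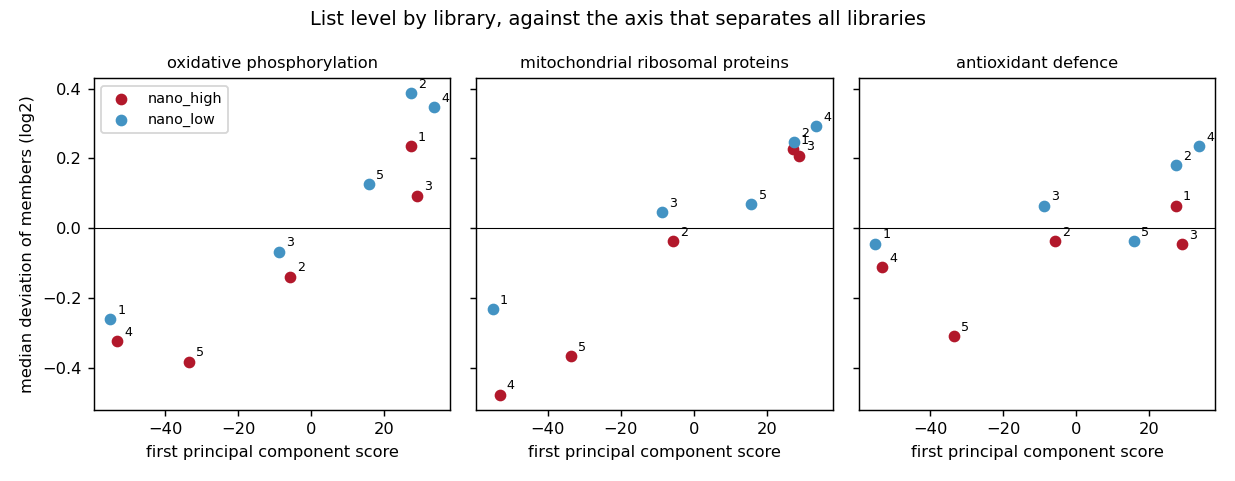
Median deviation of a list's members from their mean over the libraries (log2, y axis) against the first principal component score of the library (x axis), for nano_high (red) and nano_low (blue), with the replicate number beside each point. Oxidative phosphorylation and mitochondrial ribosomal protein levels are lowest in nano_high 4, nano_high 5 and nano_low 1, the libraries at the negative end of the axis.

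Detoxification and stress transcripts had both signs. Of 28 cytochrome P450 names 14 were positive and 14 negative (median 0.02), and without the collagen-low libraries 8 were positive and 20 negative (median -0.12). Cytochrome p450 (tag arp2_g1076) had 2.22, 2.37, 2.80, 1.89 and 3.04 CPM in nano_high and 6.06, 6.24, 5.03, 5.17 and 4.14 CPM in nano_low. The groups did not overlap, while the control libraries ran from 2.39 to 7.69 CPM across both (log2 difference -1.11, SE 0.36, edgeR adjusted p 0.644). Phase II conjugation enzymes, which attach glutathione, sulfate or sugars to foreign compounds, had 9 positive and 18 negative of 27 (median -0.12). ABC transporters had 10 positive and 7 negative of 17 (median 0.03), and 7 positive and 10 negative without the collagen-low libraries (median -0.04).

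Heat shock proteins and chaperones had 18 positive and 10 negative of 28 (median 0.06). Heat shock 70 kda protein 4l, a nucleotide exchange partner of HSP70 in mammals, was the one member at an unadjusted p under 0.05 (3.53% higher over all names). It had 231 ± 15.4 CPM in nano_high and 205 ± 10.4 CPM in nano_low (log2 difference 0.17, SE 0.07). Metal handling names had 8 positive and 9 negative of 17 (median -0.05). In this list metallothionein protein crs5, named from a copper-binding metallothionein of yeast, had 71.1, 74.7, 57.1, 101 and 72.0 CPM in nano_high and 120, 76.1, 87.7, 79.9 and 83.5 CPM in nano_low. Both groups lay below every control library, the lowest of which had 116 CPM, except nano_low 1, and they overlapped each other (log2 difference -0.25, SE 0.20). This name did not have the smallest p of its list.

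Immune names also had both signs, 16 positive and 20 negative of 36 (median -0.06). At an unadjusted p under 0.05, 3 were higher and 1 lower (3.53% and 3.23% over all names). The lower one was lectin-33a, described above. Toll receptor 13, a receptor for bacterial RNA in mice, had 119, 135, 107, 85.3 and 112 CPM in nano_high and 64.6, 73.2, 85.5, 89.3 and 109 CPM in nano_low, with overlapping groups (log2 difference 0.40, SE 0.15, edgeR adjusted p 0.662). Class c scavenger receptor sushi/scr/ccp (tag arp2_g1623), a receptor for microbes in Drosophila, had 3.96, 7.32, 4.03, 6.03 and 6.06 CPM in nano_high and 4.83, 3.09, 1.75, 2.66 and 3.00 CPM in nano_low, where nano_low 1 overlapped nano_high (log2 difference 0.83, SE 0.30). Outside the list, the name re22741p, spz3, spatzle, of the family of Toll ligands in Drosophila, was picked after its values were seen. It had 18.5, 24.0, 22.3, 38.7 and 50.7 CPM in nano_high against 16.7, 16.7, 18.1, 17.8 and 6.17 CPM in nano_low. No library overlapped, nano_high 4 and 5 were the highest, nano_low 5 the lowest, and the control at 26.1 ± 9.41 CPM covered part of nano_high (log2 difference 1.04, SE 0.32, edgeR adjusted p 0.644).

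**Figure D4:**
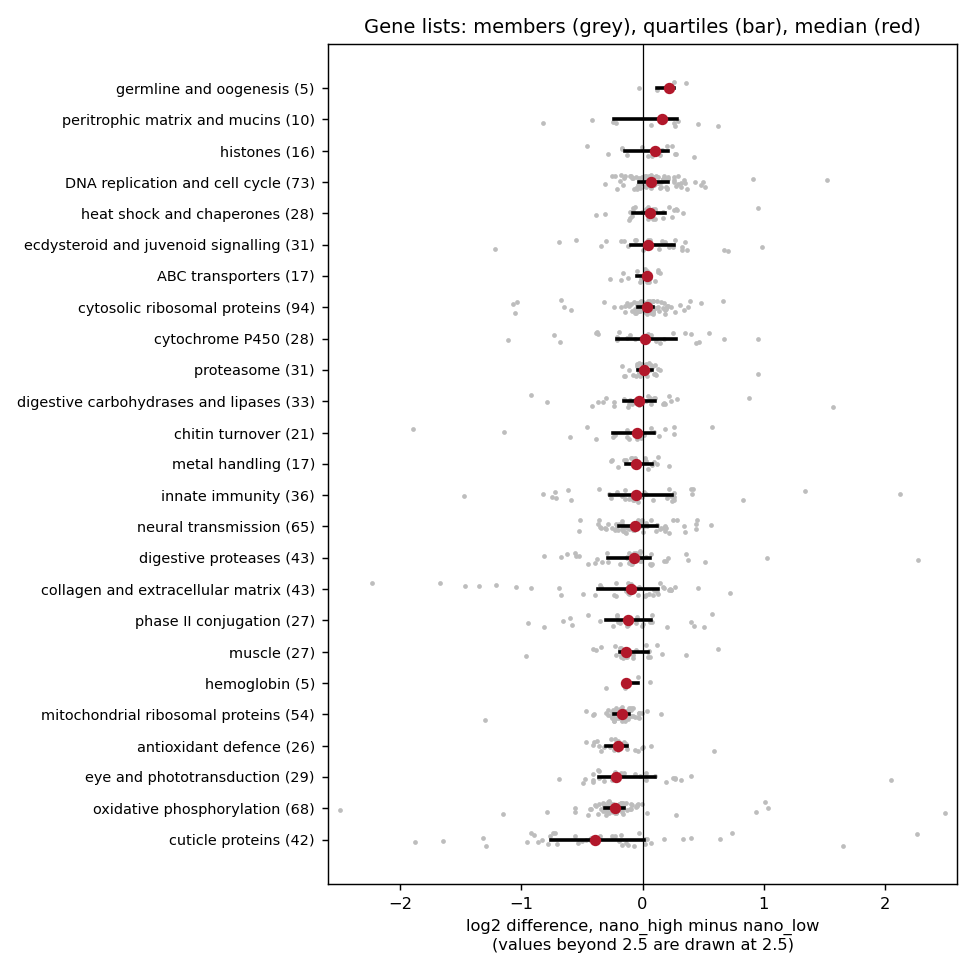
Log2 difference (nano_high minus nano_low, x axis) of each tested member (grey) of the gene lists, with the quartiles (black bar) and the median (red point); the number of members stands beside each list, and values beyond 2.5 are drawn at 2.5. Most members lie below 0 for oxidative phosphorylation (62 of 68) and mitochondrial ribosomal proteins (52 of 54). Single oxidative phosphorylation members run from -3.69 to 4.78, and cuticle proteins from -1.88 to 2.27. Without the collagen-low libraries the mitochondrial ribosomal median was -0.04, with 33 of 54 negative.

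Moult transcripts varied more between libraries than between concentrations. Of 42 cuticle proteins 31 were negative and 11 positive, with a median of -0.39, but the SD of the list level between replicates was 1.13 on the same log2 scale. Without nano_low 4 the median was 0.07, and with the library's score on the first component in the fit it was 0.32, so the direction of this list turned. It was -0.54 with 33 of 42 negative without the collagen-low libraries and -0.61 without nano_high 5. Endocuticle structural glycoprotein sgabd-5, a structural protein of the inner cuticle, had 15.8, 34.4, 47.7, 3.20 and 8.33 CPM in nano_high and 22.2, 34.4, 65.4, 19.1 and 131 CPM in nano_low (log2 difference -1.32, SE 0.71). Larval cuticle protein had 1.60, 1.505, 1.36, 1.86 and 34.8 CPM in nano_high and 1.13, 1.52, 1.75, 2.03 and 2.08 CPM in nano_low. Its log2 difference of 2.27 (SE 0.95) came from nano_high 5, and without that library it was -0.10.

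Chitin turnover had 8 positive and 13 negative of 21 (median -0.05), and 5 positive and 16 negative without the collagen-low libraries (median -0.25). Chitin deacetylase 3 precursor, which removes acetyl groups from chitin, ranged from 6.79 to 176 CPM over nano_high and from 71.2 to 339 CPM over nano_low (log2 difference -1.14, SE 0.71). Collagen and matrix names had 17 positive and 26 negative of 43 (median -0.09), with an SD of the list level between replicates of 1.10. The median was 0.07 without nano_low 2, and also 0.07 without the collagen-low libraries. Those libraries are named for their low sums of this same list, and more of them are nano_high than nano_low. The second shift therefore follows in part from which libraries were left out. Collagen alpha-1(xxiv) chain had 13.8, 3.49, 5.81, 0.162 and 2.47 CPM in nano_high and 9.45, 32.2, 12.0, 5.45 and 22.3 CPM in nano_low, and nidogen-1, a linker protein of basement membranes, averaged 146 ± 45.8 CPM in nano_high and 106 ± 30.5 CPM in nano_low. Their log2 differences were -1.67 (SE 0.85) and 0.46 (SE 0.24).

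Hormone signalling names of the moult had 21 positive and 10 negative of 31 (median 0.04). At an unadjusted p under 0.05, 2 were higher and 2 lower (3.53% and 3.23% over all names). Without the collagen-low libraries 13 were positive and 18 negative (median -0.04). Nuclear hormone receptor ftz-f1 beta, a receptor-type transcription factor, had 60.01, 68.8, 77.8, 68.7 and 66.7 CPM in nano_high and 42.4, 53.4, 59.5, 64.7 and 53.2 CPM in nano_low. Only nano_low 4 lay inside the nano_high range, and the control was lowest at 44.9 ± 5.67 CPM (log2 difference 0.32, SE 0.11, edgeR adjusted p 0.644). Juvenile hormone esterase binding protein 29, known from insects, had 14.6, 15.2, 14.8, 12.9 and 11.6 CPM in nano_high against 18.7, 16.8, 17.7, 17.1 and 17.4 CPM in nano_low, without overlap (log2 difference -0.34, SE 0.13).

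Yolk transcripts overlapped between the concentrations. Vitellogenin-1 precursor, the source of egg yolk protein, had 22420, 46318, 19290, 136750 and 69109 CPM in nano_high and 60515, 27938, 45783, 13469 and 30622 CPM in nano_low. The highest library and the second and the third lowest were nano_high ones, with nano_high 4 far above the rest (log2 difference 0.72, SE 0.49, 95% interval -0.31 to 1.75), and without the collagen-low libraries the difference was -0.0054. A second vitellogenin-1 precursor name (tag arp2_g1053) had 651, 1114, 736, 3027 and 1075.8 CPM in nano_high and 1356, 625, 1356, 508 and 796 CPM in nano_low. Again nano_high 4 stood apart (log2 difference 0.51, SE 0.39). The vitelline membrane outer layer proteins, coat proteins of the egg in birds, had log2 differences of -0.41 and -0.09. The 4 yolk names were too few to be described as a list and were picked after their values were seen.

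Transcripts of dividing and germ line cells gave small positive medians that came close to 0 or turned without the collagen-low libraries. Of 73 DNA replication and cell cycle names 51 were positive and 22 negative (median 0.07), with 5 higher and 1 lower at an unadjusted p under 0.05. Among them 11 of 15 names with cyclin were positive (median 0.28), 4 of these at an unadjusted p under 0.05, against 3.53% of all names. The cyclin names include some of transcription rather than division, cyclin-t2 among these 4. Of the 9 names with licensing factor or mcm, which include 80 kda mcm3-associated protein, 8 were positive (median 0.17). Without nano_high 5 the median of the whole list was -0.02, and without the collagen-low libraries it was 0.01 with 43 of 73 positive. The list level was highest in those 3 libraries, at 0.12 and 0.31 (log2, relative to the mean of the 10 libraries) in nano_high 4 and 5 and 0.19 in nano_low 1. G1/s-specific cyclin-e1, which starts DNA replication, had 21.8, 36.9, 19.6, 36.9 and 101 CPM in nano_high and 31.3, 21.98, 20.2, 16.2 and 24.8 CPM in nano_low, so that nano_high 5 held most of its log2 difference of 0.91 (SE 0.38, edgeR adjusted p 0.663). Dna polymerase subunit gamma-1, the mitochondrial DNA polymerase, averaged 31.6 ± 1.70 CPM in nano_high and 35.9 ± 2.95 CPM in nano_low (log2 difference -0.19, SE 0.07). The 5 germ line names had 4 positive and 1 negative (median 0.22), 16 histones 10 positive and 6 negative (median 0.10), and 31 proteasome subunits 16 positive and 15 negative (median 0.0091). Without the collagen-low libraries the germ line median was 0.03 and the histone median -0.07, with 3 histones positive and 13 negative.

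Hemoglobin is the oxygen carrier of Daphnia blood and is known to increase when oxygen is low, and here its transcripts overlapped between the groups. The 5 hemoglobin and globin names had 1 positive and 4 negative log2 differences (median -0.14). Di-domain hemoglobin precursor had 3854, 3234, 4119, 5794 and 1726 CPM in nano_high and 2175, 3874, 4125, 3781 and 3990 CPM in nano_low, with the nano_high libraries reaching both above and below nano_low (log2 difference 0.06, SE 0.23, 95% interval -0.42 to 0.54). Globin (tag arp2_g2285) averaged 825 ± 117 CPM in nano_high and 1015 ± 242 CPM in nano_low, and globin without a tag 114 ± 34.8 CPM in nano_high and 116 ± 37.8 CPM in nano_low. The second di-domain hemoglobin precursor (tag arp2_g2466) and hemoglobin subunit theta-1 each had a log2 difference of -0.14. Cytoglobin, an intracellular globin outside this list that was picked after its values were seen, had 460, 514, 532, 451 and 442 CPM in nano_high against 653, 563, 556, 723 and 756 CPM in nano_low. Its groups did not overlap (log2 difference -0.44, SE 0.16, edgeR adjusted p 0.644).

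Names of eye, muscle and nerve had more negative than positive differences, by small amounts that shifted with single libraries, depth or the collagen-low libraries. Of 29 eye and phototransduction names 19 were negative and 10 positive, with a median of -0.22 that was -0.03 when all libraries had equal depth and -0.08 without nano_low 1. Retinol dehydrogenase all-trans/9-cis/11-cis, of the enzymes that recycle visual pigment, had 30.6, 28.95, 27.1, 25.3 and 22.7 CPM in nano_high and 29.6, 35.6, 33.7, 39.98 and 40.03 CPM in nano_low, with nano_low 1 inside the nano_high range (log2 difference -0.41, SE 0.14, edgeR adjusted p 0.644). The receptor gprop1 (tag arp2_g139), described as class a and rhodopsin-like, averaged 32.0 ± 6.91 CPM in nano_high, 42.5 ± 7.20 CPM in nano_low and 64.0 ± 21.1 CPM in control. Muscle had 9 positive and 18 negative of 27 (median -0.13), with a median of 0.03 without nano_low 2. Neural transmission had 24 positive and 41 negative of 65 (median -0.06), and 34 positive and 31 negative without the collagen-low libraries (median 0.02). In whole animals, fewer cells of a type and less RNA per cell cannot be told apart.

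The 5 informative names with the smallest p in nano_high against the control were 30s ribosomal protein s8, wnt-2b, cyclin-t2, calpain-7 and hig1 domain family member, and the 3 in nano_low against the control were 30s ribosomal protein s8, 60s ribosomal protein l23 and wnt-2b. Since these comparisons chose them, their distance to the control is a description. Cyclin-t2 and hig1 domain family member were given above, and the others follow over the concentrations. 30s ribosomal protein s8 (tag arp2_g2243) is named as a small-subunit protein of the bacterial and organelle type. It had 98.5 ± 9.48 CPM in control, 40.1 ± 10.6 CPM in nano_low and 29.7 ± 4.83 CPM in nano_high (SD, n = 5 each). The nano_low and nano_high libraries overlapped, and the log2 difference between nano_high and nano_low was -0.43 (SE 0.16, edgeR adjusted p 0.644), against -1.73 for nano_high and -1.30 for nano_low relative to the control.

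60s ribosomal protein l23 had 489 ± 26.1 CPM in control, 291 ± 31.1 CPM in nano_low and 288 ± 32.3 CPM in nano_high. The copolymer groups lay on top of each other, with a log2 difference of -0.02 (SE 0.11, 95% interval -0.24 to 0.21). Calpain-7, a cysteine protease of the calpain family, had 452 ± 13.3 CPM in control, 297 ± 38.0 CPM in nano_low and 264 ± 28.97 CPM in nano_high, a log2 difference between nano_high and nano_low of -0.17 (SE 0.10, 95% interval -0.38 to 0.04). Wnt-2b, a secreted Wnt ligand, had 10.7 ± 0.982 CPM in control, 6.16 ± 1.17 CPM in nano_low and 4.95 ± 0.587 CPM in nano_high, with a log2 difference of -0.32 between the copolymer groups (SE 0.13, 95% interval -0.58 to -0.05). For these names a p that misses the threshold does not show that the 2 concentrations act alike, and the intervals give what the data allow.

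Fkbp14, a prolyl isomerase of the endoplasmic reticulum in mammals, was picked after its values were seen. It had 3666, 1198, 1142, 1070 and 1433 CPM in nano_high and 4735, 4625, 4736, 5394 and 4887 CPM in nano_low. The nano_low libraries were close together and above all nano_high libraries, while the control spread from 3105 to 15962 CPM (log2 difference -1.52, SE 0.59, 95% interval -2.75 to -0.29, edgeR adjusted p 0.662).

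**Figure D5:**
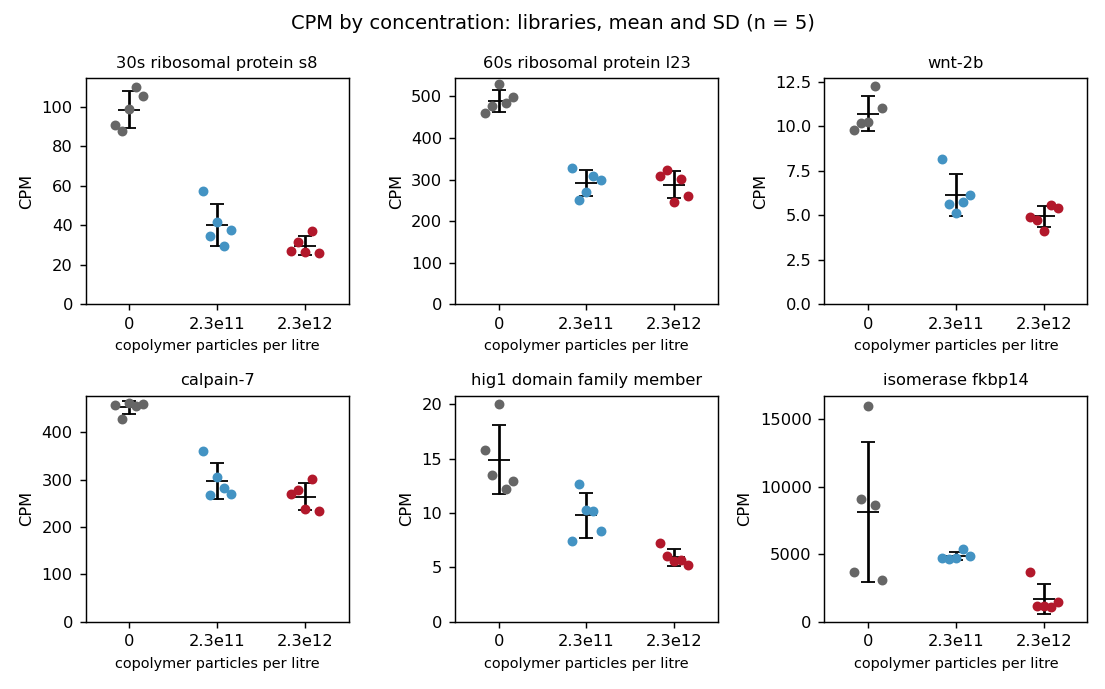
CPM in each library (points) with mean and SD (bars, n = 5) at 0, 2.3e11 and 2.3e12 copolymer particles per litre for 6 names, with every y axis starting at 0. The mean at 2.3e12 is the lowest in all 6 names, which were chosen by their p or after their values were seen. Cyclin-t2, also among the names chosen against the control, is not drawn. Its mean was highest at 2.3e12, with 48.3 CPM in control, 58.5 CPM in nano_low and 74.8 CPM in nano_high. In 60s ribosomal protein l23 and calpain-7 the copolymer groups lie close together below the control.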

How the data were processed

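Pooled whole Daphnia magna gave 20 RNA libraries, 5 for each of 4 groups. The authors' deposited table, called normalized, holds estimated counts (expected counts) for 7784 names in 20 columns. Their totals differ widely, so they were treated as not scaled to a common depth; the sources used here do not say how the table was normalized. Salmon 0.12.0 and R 3.4.3 are named in the submitters' processing notes, without the reference or the step from transcripts to names. Names are protein descriptions (1432 with an added gene tag), and 0 matched a symbol of the reference table, so no positions, lengths or sequences are used. Copies that share a description may share reads, which makes single members of families such as cuticle and ribosomal proteins uncertain.

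Values were rounded, and a name was tested if it reached 1 in 5 or more libraries (7564 tested, 220 left out). TMM factors were 0.898 to 1.14. In edgeR 4.0.16 (R 4.3.3) the model had 1 mean for each group over the 20 libraries, so the groups share an estimate of the spread. Tests were quasi-likelihood, two-sided, with Benjamini-Hochberg adjustment over all 7564 names and a threshold of 0.05. SE and 95% intervals come from the same fit. For the principal components, log2 CPM took a prior count of 2. DESeq2 1.42.0, limma 3.58.1 (voom), other scalings and filters, thinning to 7912464 counts, a replicate block, a first-component covariate and leaving out libraries were alternatives. Figures used Python 3.11.15 and matplotlib 3.10.9. The tests were tried on simulated data. Of 40 replicate pairs, 0 were identical. Sequencing pools held 8 libraries, and the labels do not say which.

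Named transcripts are the 24 informative names with the smallest p and some members of the lists with at least 5 tested members. These members were not always those with the smallest p. In metal handling, chitin turnover and oxidative phosphorylation, names with a smaller p were passed over. Others are said to be picked after their values were seen, or were chosen against the control. Names and lists were chosen with earlier results of these data known.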

Additional observations from a re-analysis of the deposited data

Results flagged for a closer look

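In 18 of 140 groups of 5 libraries (12.9%), over the 70 names described, 1 library stood far from the other 4 by Dixon's test. Chance gives about 1 in 20 for values drawn independently, but these names share libraries and were chosen by p or after their values were seen. Over all names the share was 5.91%. Nano_high 5 and nano_low 5 held 5 of the 18 each.

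In nano_high 5, g1/s-specific cyclin-e1 had 101 CPM (others 19.6 to 36.9), larval cuticle protein 34.8 CPM (1.36 to 1.86), cytochrome c oxidase subunit iv (tag arp2_g2429) 6.04 CPM (2.42 to 3.35), son of sevenless 65.8 CPM (54.1 to 56.8) and 25-hydroxyvitamin d-1 alpha hydroxylase 31.6 CPM (43.4 to 47.8). In nano_high 4, vitellogenin-1 precursor (tag arp2_g1053) had 3030 CPM (651 to 1110) and glycine n-methyltransferase 117 CPM (90.6 to 98.1). In nano_high 1, fkbp14 had 3670 CPM (1070 to 1430).

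In nano_low 5, the outlying values were 61.1 CPM for cyclin-t2 (57.4 to 58.3), 4.33 CPM for phospholipase a1 member a (4.77 to 4.93), 437 CPM for plasminogen activator inhibitor 1 rna-binding protein (276 to 321), 75.2 CPM for phosphatase and actin regulator (56.5 to 61.0) and 6.17 CPM for spatzle (16.7 to 18.1). Nano_low 1 had 2180 CPM of di-domain hemoglobin precursor (3780 to 4120) and 120 CPM of metallothionein protein crs5 (76.1 to 87.7). Nano_low 3 had 21.4 CPM of la-related protein (24.6 to 25.7) and 745 CPM of mucin 55b (596 to 630), and nano_low 2 had 3.94 CPM of meprin a subunit alpha (1.87 to 2.38).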

How the results depend on the processing

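Under 21 alternatives the number of names called stayed at 0 except with DESeq2's Wald test (4) and after thinning to the shallowest library (1). The thinning was a single random draw. The number called was 0 to 0 when each replicate was left out. The 511 names at an unadjusted p under 0.05 became 960 with the first component's score as a covariate, of which 0 passed the adjustment, and 332 to 724 when each replicate was left out (332 without nano_high 5). The cause was not tested. With the replicate number as a block there were 0 calls, 498 names at an unadjusted p under 0.05 and a lowest adjusted p of 0.37. Same-numbered nano_high and nano_low libraries had correlations of deviations of -0.636, -0.219, -0.13, -0.47 and -0.0566, so these deviations showed no pairing by number. The correlations cannot tell whether same-numbered libraries shared a culture or a batch, which the labels do not give.

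Of 1470 values for single names under the alternatives, 1444 kept direction and side of the threshold, 5 passed the threshold only there, and 21 turned direction, all in 9 names. Di-domain hemoglobin precursor gave -0.0133 with limma-voom and -0.0776 without the 5 collagen-low libraries, where vitellogenin-1 precursor gave -0.00541, larval cuticle protein -0.307 and 60s ribosomal protein l23 0.0513. Leaving out each replicate, the log2 differences ran from -0.146 to 0.244 for di-domain hemoglobin precursor, from -0.256 to 0.0198 for its name tagged arp2_g2466, from -0.167 to 0.0985 for globin, from -0.277 to 0.00409 for hemoglobin subunit theta-1, from -0.0542 to 0.687 for vitellogenin-1 precursor tagged arp2_g1053, from -0.225 to 0.0477 for vitelline membrane outer layer protein, from -0.103 to 2.54 for larval cuticle protein and from -0.0678 to 0.0316 for 60s ribosomal protein l23.

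Over all 21 alternatives the median of oxidative phosphorylation ran from -0.313 to -0.134, of complex I from -0.388 to -0.181, of antioxidant defence from -0.27 to -0.0993 and of cuticle proteins from -0.609 to 0.317. Of the 197 differences above 2-fold 76.6% were in names below 5 CPM, which make up 15.9% of the names tested.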
